A study of Mus musculus with 14 samples.

Results

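The locus described here holds the genes B3glct, Rxfp2 and Fry, which lie side by side on mouse chromosome 5 (mm10), and the question was which of its H3K27me3 peaks are higher in embryonic stem cells with a deletion at Hmx1 and which are not. Every peak within 20 kb of the RefSeq gene body of one of these genes was taken, which gave 23 of the 74458 peaks of the deposited table, 4 at B3glct, 9 at Rxfp2 and 10 at Fry. The locus itself was picked because peaks of it stood out in the Hmx1 deletion, so that all values of the Hmx1 deletion against the others are a description and carry no test. H3K27me3 was profiled by Cut&Tag, in which an antibody tethers the transposase Tn5 to the mark and the DNA beside it is cut and tagged for sequencing. The cells were G4 mouse embryonic stem cells (mESCs), kept with leukaemia inhibitory factor on CD1 feeder cells, in which CRISPR-Cas9 had removed a Polycomb loop anchor. The paper describes the line as an F1 hybrid of mouse strains and the anchor deletions as homozygous. The groups were the Hmx1 Deletion (2 libraries), the Hoxa Deletion, which spans Hoxa2 to Hoxa13 (3 libraries), and the Wnt6 Deletion (2 libraries). The table has no column of unedited cells, so each deletion could be set only against the other deletions, and the 7 IgG libraries were not analysed here. The labels do not name clones. If each deletion is 1 clone, clone and deletion cannot be told apart, and the spread between libraries of a deletion may be technical.

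H3K27me3 is written by Polycomb repressive complex 2 and covers the CpG-rich promoters of silent developmental genes in mESCs, from where it can spread to neighbouring chromatin. B3glct encodes the glucosyltransferase that extends O-linked fucose on thrombospondin type 1 repeats of secreted proteins. Rxfp2 encodes the receptor for the hormone Insl3, which acts in the descent of the testis. Fry encodes a large scaffold protein of the furry family that works with NDR kinases and microtubules.

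The gene bodies span chr5:149678100-149762599 for B3glct, chr5:150018675-150082550 for Rxfp2 and chr5:150118618-150497753 for Fry, all on the plus strand of GRCm38.p6. The 250 bases before the annotated start of each gene are shown because CpG density is the sequence feature most tied to Polycomb at promoters, and because the peaks that gained the mark lie away from these windows. The sequences are those of RefSeq (GRCm38.p6, plus strand, 5′ to 3′), with each CG in capitals.
B3glct: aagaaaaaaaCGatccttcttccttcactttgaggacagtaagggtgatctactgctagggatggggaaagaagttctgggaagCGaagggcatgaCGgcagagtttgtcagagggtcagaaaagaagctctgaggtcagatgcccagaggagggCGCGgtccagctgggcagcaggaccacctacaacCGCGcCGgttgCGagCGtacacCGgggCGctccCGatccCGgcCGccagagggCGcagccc
Rxfp2: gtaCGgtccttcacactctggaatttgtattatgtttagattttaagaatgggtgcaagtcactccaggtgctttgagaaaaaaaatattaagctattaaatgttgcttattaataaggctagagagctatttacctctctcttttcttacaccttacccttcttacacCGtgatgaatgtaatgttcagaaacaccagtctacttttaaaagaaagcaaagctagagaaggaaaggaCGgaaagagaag
Fry: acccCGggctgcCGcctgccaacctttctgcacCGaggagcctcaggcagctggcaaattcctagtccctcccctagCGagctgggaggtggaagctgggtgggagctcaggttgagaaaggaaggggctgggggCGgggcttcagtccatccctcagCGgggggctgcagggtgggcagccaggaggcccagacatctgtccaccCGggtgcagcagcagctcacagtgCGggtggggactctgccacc
CG reads the same on both strands and cannot overlap itself. The B3glct window, chr5:149677980-149678229, holds 16 CG, and 25.4% of 32841 RefSeq promoter windows of this length hold at least as many. The last 79 bases of it lie in an H3K27me3 peak. At Rxfp2 the window, chr5:150018425-150018674, holds 3 CG, a number that 71.0% of windows reach, and no peak covers it. The Fry window, chr5:150259680-150259929, holds 8 CG, a number that 43.0% of windows reach, and it lies wholly within a peak. The median over all windows was 6 CG. The Fry gene body begins upstream of this annotated start, and that upstream end has a peak of its own.

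Library totals ran from 6016500 to 36563541 counts over all peaks, and the locus took between 1228 and 5331 counts of each library. Levels are given as CPM, the count of a peak relative to the total of its library, scaled by TMM factors. The labelled deletion was checked first. Summed over the 7 peaks of the Hmx1 gene body, the libraries of the Hmx1 deletion held 2.03 and 1.14 CPM and the other libraries between 455 and 547 CPM. Genes silent in mESCs carried more of the mark than genes active there. Library medians were 53.8 to 62.3 CPM per kb over 8 developmental genes. They were 6.13 to 8.44 CPM per kb over the 6 of 8 mESC genes that had a peak. Among these 6, Esrrb was highest at 17.5 to 20.7 CPM per kb and Klf4 held 8.12 to 16.4 CPM per kb. The rest held at most 9.84 CPM per kb in any library. The Hmx1 gene lies 114 Mb from B3glct on the same chromosome.

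Within B3glct, 1 peak held almost no mark in the Hoxa and Wnt6 deletions and the level of a strong peak in the Hmx1 deletion. Gained is used here for such peaks, and means higher than in the other deletions, not than in unedited cells. This peak, chr5:149737831-149739344, is 1513 bp wide and lies 59.6 kb after the start site. In the Hmx1 deletion it held 38.9 and 32.8 CPM, in the Hoxa deletion 1.29, 1.60 and 1.03 CPM, and in the Wnt6 deletion 0.926 and 1.05 CPM. Both libraries of the Hmx1 deletion were far above all others, and the Hoxa and Wnt6 libraries overlapped. The deposited counts behind these values were 230 and 834 in the Hmx1 deletion, 11, 42 and 16 in the Hoxa deletion, and 9 and 40 in the Wnt6 deletion. Against both other deletions pooled, the log2 fold change of the Hmx1 deletion was 4.88 (SE 0.185), a fold of 29.5, and it was 4.70 against the Hoxa deletion alone and 5.11 against the Wnt6 deletion alone. By level per kb, the peak ranked 5 from the lowest of all 74458 peaks in the Hoxa and Wnt6 deletions. In the Hmx1 deletion it stood at percentile 85.9. Its mean of 23.7 CPM per kb in the Hmx1 deletion was close to the 25.7 CPM per kb of the peak at the B3glct start in the same libraries. The low rank is no separate result, since the locus was picked for peaks that stood out in the Hmx1 deletion. A list shared by all libraries may also hold a peak because of 1 deletion alone.

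A pair of narrower peaks inside Fry gained the mark too. They lie 424 kb beyond the gained B3glct peak, 1.26 kb apart from each other, and upstream of the annotated Fry start site. At the first, chr5:150163555-150163949, the Hmx1 deletion held 4.23 and 5.31 CPM, the Hoxa deletion 0.823, 0.229 and 0.387 CPM, and the Wnt6 deletion 0.412 and 0.235 CPM. Both Hmx1 libraries were above all others, the Hoxa and Wnt6 libraries overlapped, and the low values rest on 4 to 9 counts in each library of the Hoxa and Wnt6 deletions. Its log2 fold change was 3.78 (SE 0.393), a fold of 13.7. The second, chr5:150165208-150165734, held 8.45 and 9.64 CPM in the Hmx1 deletion, 0.470, 0.650 and 0.773 CPM in the Hoxa deletion, and 0.515 and 0.470 CPM in the Wnt6 deletion. Here again both libraries of the Hmx1 deletion were above all others, with a log2 fold change of 3.97 (SE 0.262), a fold of 15.7. These peaks ranked 7 and 8 from the lowest of all peaks in the Hoxa and Wnt6 deletions by level per kb. In the Hmx1 deletion they stood at percentiles 70.3 and 80.2. The limit given for the rank of the gained B3glct peak holds here too.

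**Figure D1:**
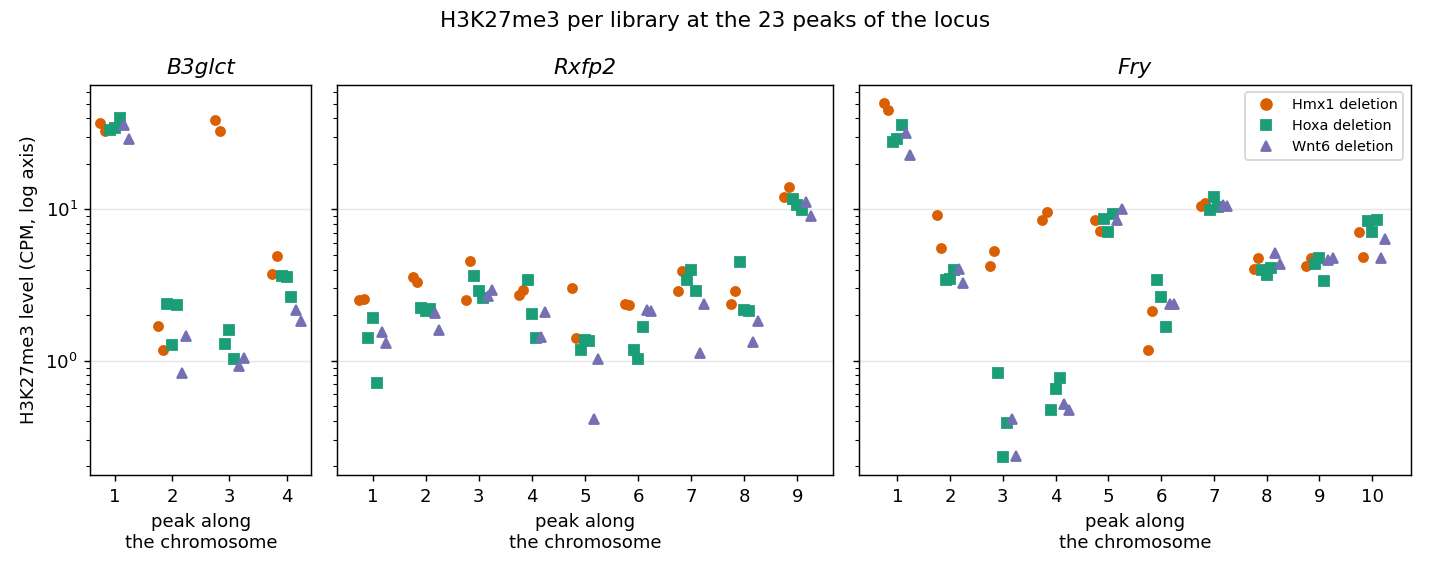
H3K27me3 level (CPM, log axis) of each of the 23 peaks in each of the 7 libraries, by gene and in order along the chromosome, with symbols for the 3 deletions. At peak 3 of B3glct and peaks 3 and 4 of Fry both Hmx1 deletion libraries lie far above the others. The deletions overlap at the strong peak of the B3glct start (peak 1). At the weaker peak of the Fry start site (peak 5) the Hmx1 deletion libraries lie within the range of the others. At the strongest Fry peak (peak 1) they lie above the others by a smaller margin.

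To be called, a peak needed a log2 fold change beyond 1 in either direction and an adjusted p under 0.05 by the quasi-likelihood test of edgeR, run on the 74441 peaks that passed the filter on low counts. All 23 peaks of the locus passed this filter. Called higher in the Hmx1 deletion were 3 peaks of the genome, 0.00403% of those tested, and all 3 are the peaks just described. This fit treated the Hoxa and Wnt6 deletions as 1 group, so differences between them counted as spread. With a term for each genotype, 118 peaks were called higher and 100 lower, and the same 3 were among those higher. Called lower in the pooled fit were 18 peaks (0.0242%), none of them in the locus. Of these, 15 lay elsewhere on chromosome 5, where the deleted stretch at Hmx1 gives no reads. Missing DNA and a lost mark were not separated in these calls. As the locus was chosen from this contrast, nothing is read from these counts or from the rank of its peaks. The next largest log2 fold changes in the genome, at Kcnip4 (1.65) and Wwox (1.64), were well under those of the 3 peaks and were not called. Without replicate 2 of the Hmx1 deletion, the first Fry peak kept a log2 fold change of 3.55 but was no longer called, which left 2 peaks. The remaining Hmx1 library was then assumed to vary like the other groups.

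**Figure D2:**
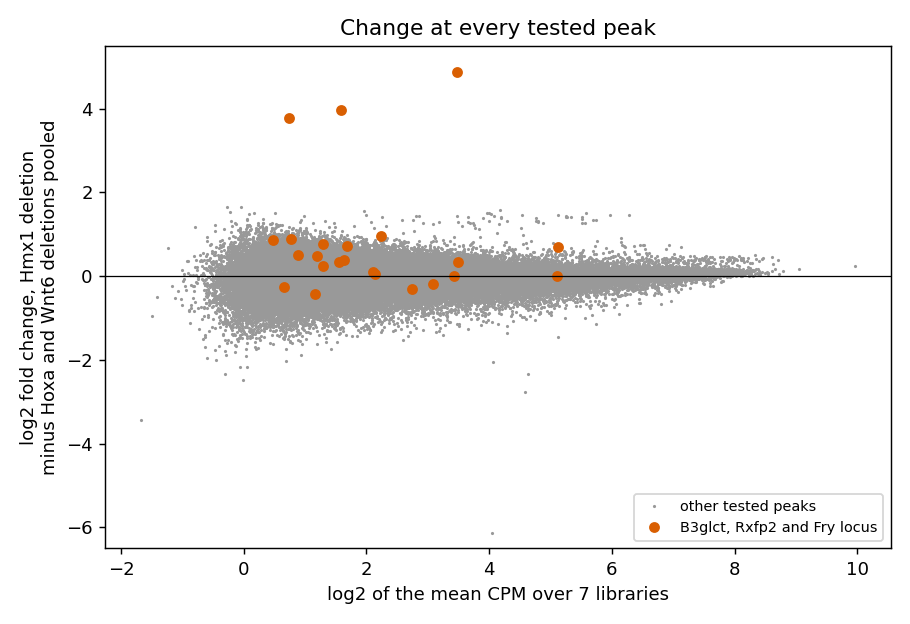
Log2 fold change of the Hmx1 deletion against the pooled Hoxa and Wnt6 deletions, by log2 of the mean CPM over the 7 libraries, for all 74441 tested peaks (grey) and the 23 peaks of the locus (orange), with 11 grey points below the axis. The 3 gained peaks lie between 3.78 and 4.88, above every other peak, an order favoured by the choice of the locus from this contrast.

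None of the other B3glct peaks was called, and they differed far less between deletions than the gained one. At the start of the gene, chr5:149678151-149679507, the levels were 37.0 and 32.7 CPM in the Hmx1 deletion, 33.4, 34.3 and 40.0 CPM in the Hoxa deletion, and 36.0 and 29.1 CPM in the Wnt6 deletion. The 3 deletions overlapped at this promoter peak, and its log2 fold change was 0.01 (SE 0.135). The neighbour before the gained peak, chr5:149715829-149716142, held 1.69 and 1.18 CPM, against 2.35, 1.26 and 2.32 CPM in the Hoxa deletion and 0.823 and 1.46 CPM in the Wnt6 deletion. It is a weak peak whose groups overlapped, with a log2 fold change of -0.26 (SE 0.434). The neighbour after, chr5:149749321-149750063, which also overlaps Gm36141, held 3.72 and 4.92 CPM, against 3.64, 3.55 and 2.64 CPM in the Hoxa deletion and 2.16 and 1.83 CPM in the Wnt6 deletion. Both Hmx1 deletion libraries were highest there, though one of them was close to the Hoxa libraries. Its log2 fold change was 0.72 (SE 0.285), and it was 0.46 against the Hoxa deletion alone and 1.21 against the Wnt6 deletion alone.

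Rxfp2, which lies between the gained peaks, had no called peak, but each of its 9 peaks had a positive log2 fold change in the Hmx1 deletion, from 0.24 to 0.88 with a median of 0.48. Its peak nearest the start site, chr5:150021015-150021298, lies 2.34 kb after it and held 2.54 and 2.56 CPM in the Hmx1 deletion, 1.41, 1.91 and 0.709 CPM in the Hoxa deletion, and 1.54 and 1.31 CPM in the Wnt6 deletion. The Hmx1 libraries were above all others, with a log2 fold change of 0.88 (SE 0.359). The strongest Rxfp2 peak, chr5:150097286-150098036, lies 14.7 kb outside the gene body and held 12.0 and 14.0 CPM, against 11.6, 10.7 and 9.92 CPM in the Hoxa deletion and 11.2 and 9.07 CPM in the Wnt6 deletion. Again the Hmx1 libraries were highest, by a small margin, with a log2 fold change of 0.33 (SE 0.162). In 5 of the 9 Rxfp2 peaks both Hmx1 deletion libraries lay above all 5 others, an order that 6.94% of all tested peaks had.

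Fry divided somewhere in the 93.6 kb without a peak that separate the gained pair from the peak at its annotated start site. Upstream of it, the peak at the beginning of the gene body, chr5:150118518-150119504, which also overlaps Gm52797, held 50.7 and 45.1 CPM in the Hmx1 deletion, 27.9, 29.2 and 36.0 CPM in the Hoxa deletion, and 31.8 and 22.8 CPM in the Wnt6 deletion. The Hmx1 libraries were above all others at this peak, the strongest of Fry, with a log2 fold change of 0.70 (SE 0.146), a fold of 1.62. The next peak, chr5:150152185-150152638, is the last before the gained pair and held 9.13 and 5.59 CPM, against 3.41, 3.48 and 4.00 CPM in the Hoxa deletion and 4.01 and 3.27 CPM in the Wnt6 deletion. Both Hmx1 libraries were highest but differed from each other, and the log2 fold change was 0.95 (SE 0.226), with 0.63 without replicate 1 of the Hmx1 deletion and 1.34 without replicate 2. At the annotated start site, chr5:150259339-150260215, the order was gone. This peak held 8.45 and 7.20 CPM in the Hmx1 deletion. The levels were 8.58, 7.03 and 9.34 CPM in the Hoxa deletion, and 8.54 and 10.1 CPM in the Wnt6 deletion. Both Hmx1 libraries lay within the range of the others, though below both Wnt6 libraries, and the log2 fold change was -0.18 (SE 0.189). The 5 Fry peaks after it had log2 fold changes from -0.42 to 0.09.

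The outermost member, chr5:150517470-150518115, lies 19.7 kb beyond Fry and overlaps Zar1l, an oocyte gene. It held 7.10 and 4.84 CPM in the Hmx1 deletion. In the Hoxa deletion it held 8.35, 7.07 and 8.44 CPM, and in the Wnt6 deletion 4.73 and 6.40 CPM. The Hmx1 libraries overlapped both other groups. All Hoxa libraries lay above the Wnt6 libraries, with a log2 fold change of 0.44 between these deletions that was not called. Just outside the 20 kb limit, the peak chr5:149992614-149992891, 25.8 kb before Rxfp2, held 3.21 and 2.05 CPM, against 1.29, 1.49 and 0.709 CPM in the Hoxa deletion and 1.13 and 1.23 CPM in the Wnt6 deletion. The Hmx1 libraries were above the others there, with a log2 fold change of 1.06 (SE 0.371), and the peak was not called.

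Over all 23 peaks the log2 fold change had a median of 0.39, with 19 of them positive, and over all tested peaks the median was -0.01. In 11 of the 23 both Hmx1 deletion libraries lay above all others, an order that 6.94% of all tested peaks had. These 11 include the 3 gained peaks, and without them it was 8 of 20. In none did both lie below all others, an order that 8.01% of all tested peaks had. Leaving out replicate 2 of the Hmx1 deletion lowered the median to 0.21. The median was 0.36 over the 4 B3glct peaks and 0.07 over the 10 Fry peaks. On chromosome 5 outside the locus it was -0.04 over 4612 tested peaks.

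The higher values were not spread evenly over the locus but lay between the gained B3glct peak and the gained Fry pair. This interval, chr5:149737831-150165734, is 428 kb long and was delimited after its values were seen. It holds 32 peaks, 15 of them members. Without the 3 gained peaks, 28 of 29 had a positive log2 fold change, with a median of 0.60 and a range from -0.05 to 1.24. In 18 of 29 the Hmx1 libraries lay above all others, beside 6.94% of all tested peaks. The 17 peaks of the interval that belong to none of the 3 genes had the same median, 0.60, with 16 positive. The 8 members outside the interval had a median of -0.09 and a range from -0.42 to 0.09.

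**Figure D3:**
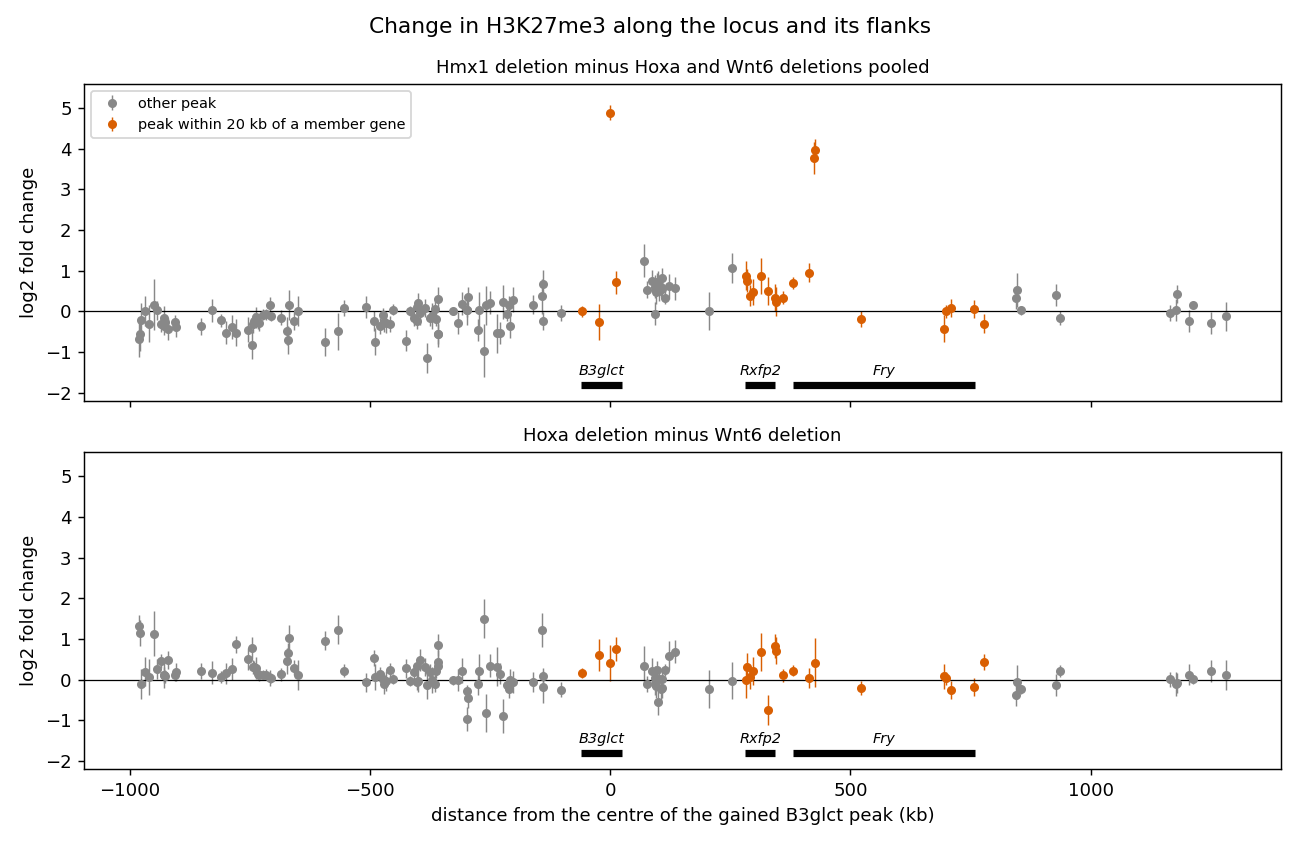
Log2 fold change with its standard error (bars) at each tested peak of the locus and of 1 Mb on either side, by distance in kb from the centre of the gained B3glct peak, for the Hmx1 deletion against the pooled others (top) and the Hoxa deletion against the Wnt6 deletion (bottom), with gene bodies as black bars. In the top panel the 3 gained peaks stand at 3.78 to 4.88 and the peaks between them lie mostly above 0. In the bottom panel the peaks of the interval lie on both sides of 0, and many of those before it lie above 0.

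The same stretch was then summed in each library. Added up over the 29 peaks of the interval that were not gained, the Hmx1 deletion held 190 and 193 CPM, the Hoxa deletion 134, 138 and 132 CPM, and the Wnt6 deletion 131 and 115 CPM. The Hmx1 libraries were thus at 146% and 149% of the mean of the others, outside the range of 88.3% to 106% of the other libraries. CPM is not corrected for DNA copy number, which was not tested. In the 90 peaks of the 1 Mb before the interval, the sums were 677 and 684 CPM in the Hmx1 deletion, 774, 757 and 757 CPM in the Hoxa deletion, and 696 and 696 CPM in the Wnt6 deletion. Here the Hmx1 libraries were lowest, and the median log2 fold change was -0.19. These 90 peaks also differed between the other deletions, with 5 called higher and 0 lower in the Hoxa than in the Wnt6 deletion (edgeR, lowest adjusted p = 0.000316), a share to set beside the 1.3% of all tested peaks called in either direction, and with a median log2 fold change of 0.16. In the 18 peaks of the 1 Mb after it, the Hmx1 deletion held 395 and 376 CPM, the Hoxa deletion 363, 357 and 348 CPM, and the Wnt6 deletion 392 and 351 CPM. On that side the Hmx1 libraries lay above the Hoxa libraries but overlapped the Wnt6 libraries, and the median log2 fold change was 0.02. The last peak before the interval lies 21.7 kb away and the first after it 93.6 kb away, so that its ends are known only to within these gaps.

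**Figure D4:**
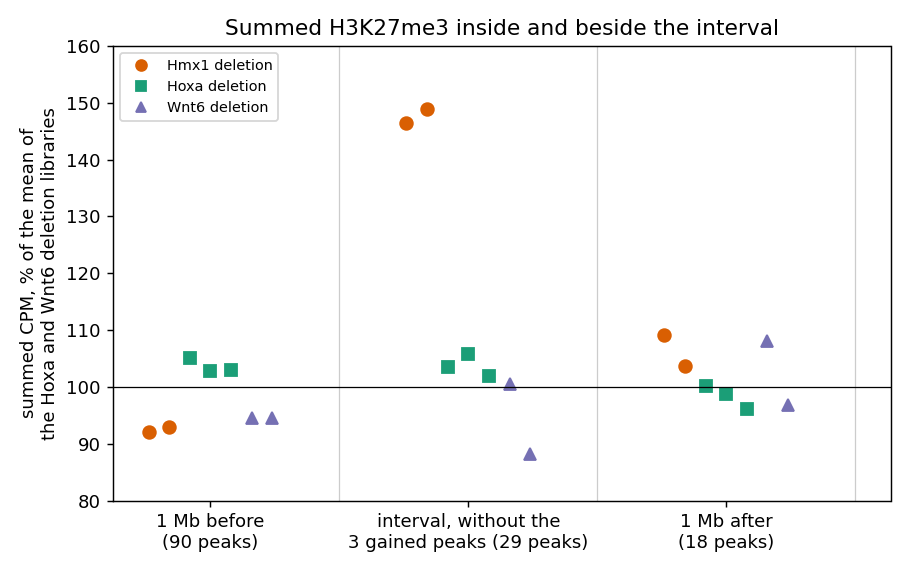
Summed CPM of each library as a percentage of the mean of the 5 Hoxa and Wnt6 deletion libraries (line at 100), for the 29 interval peaks without the 3 gained peaks and for the peaks of 1 Mb on either side. The vertical axis starts at 80, and the Hmx1 deletion libraries lie at 146% and 149% within the interval, against 92.0% and 92.9% before it and 109% and 104% after it.

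The comparison of the Hoxa and Wnt6 deletions was fitted without the Hmx1 libraries. It is not fully independent of the choice of the locus, since the same 5 libraries were the other side of the contrast that picked it and a peak called there tends to have a small spread among them, so the gained peaks are given by their values alone. None of the 20 members that are not gained peaks was called by edgeR's quasi-likelihood test, where 1.3% of 74391 tested peaks were called in either direction, and DESeq2 called none of them either. Of these 20, 4 stood at an unadjusted p under 0.05, beside 17.2% of all tested peaks, and the lowest adjusted p was 0.0847. It belonged to the Rxfp2 peak chr5:150080378-150080801, named here after its value was seen, which held 3.41, 3.97 and 2.90 CPM in the Hoxa deletion and 1.13 and 2.35 CPM in the Wnt6 deletion. The log2 fold change was 0.83 (SE 0.293). These groups did not overlap, and the Hmx1 libraries, at 2.87 and 3.94 CPM, overlapped the Hoxa libraries. The gained B3glct peak had a log2 fold change of 0.41 (SE 0.445) between the Hoxa and Wnt6 deletions. For the second gained Fry peak it was 0.42 (SE 0.602). The first gained Fry peak did not pass the filter and was not tested. The peaks at the B3glct start (0.16, edgeR adjusted p = 0.558), at the beginning of Fry (0.22, edgeR adjusted p = 0.407) and at the Fry start site (-0.21, edgeR adjusted p = 0.611) were not called between these deletions. Over the 20 members that are not gained peaks the median log2 fold change was 0.13, with a range from -0.74 to 0.83. Over all tested peaks it was -0.001. With the gained peaks that passed the filter included, the median was 0.19 over 22 members.

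The peaks elsewhere most like the gained B3glct peak were sought by Pearson's r of log2 CPM over the 7 libraries, among 3226 peaks outside the locus whose log2 CPM ranged over at least 2. The closest was a peak in Wwox, which encodes an oxidoreductase with WW domains, at r = 0.957. After it came a peak 628 kb from Sall3 (r = 0.871), the peak just before Rxfp2 described above (r = 0.870), a peak in Kcnip4, which encodes a potassium channel interacting protein (r = 0.856), and a peak 45.1 kb beyond B3glct (r = 0.828). These values are a description, as the points share libraries and depth, and 2 of the 5 peaks lie within the interval. Their levels were low, with at most 3.21 CPM in any library, where the gained B3glct peak reached 38.9 CPM.

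Genes with related roles elsewhere in the genome had no peak called in the Hmx1 deletion. Over all tested peaks 0.00403% were called higher and 0.0242% lower, so nothing is read from this. Among 57 peaks at 10 genes of the O-fucose pathway and its substrates, such as Pofut2 and Thbs1, the log2 fold changes had a median of 0.08 and a range from -0.93 to 0.64. Among 24 peaks at 6 of 7 relaxin-type receptor and ligand genes the median was 0.06, and among 33 peaks at 8 genes around Fry and the NDR kinases it was -0.10, with none called in either list. Between the Hoxa and Wnt6 deletions, 1 peak of the first list was called higher and 1 of the second lower in the Hoxa deletion, and none of the third was called, beside 1.3% of all tested peaks called in either direction. The medians of that comparison were -0.07, -0.33 and 0.21. At an unadjusted p under 0.05 stood 14 of 57, 13 of 24 and 11 of 33 peaks of the lists, beside 17.2% of all tested peaks.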

How the data were processed

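H3K27me3 Cut&Tag counts over a shared peak list were deposited by the authors in 1 table, unnormalized, and the titles assigned its 7 columns to samples. The submitters' processing notes name Trimmomatic, Bowtie2, SAMtools, Picard, MACS2, deepTools and the build mm10, without roles or versions. How the peaks of the libraries were merged, and whether reads or fragments were counted, is not given in the sources used here. A list made from some libraries favours peaks strong in them. The start convention (0 or 1) is not stated either. Gene positions and promoter sequences came from RefSeq tables of GRCm38.p6, without exons, so exonic or intronic position is not given.

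The genes, lists and tests were chosen with earlier results of these data known. Analyses used R 4.3.3, edgeR 4.0.16, limma 3.58.1 and DESeq2 1.42.0, with plots in Python 3.11.15 (matplotlib 3.10.9). After filterByExpr by genotype (17 peaks removed for the Hmx1 contrast) and TMM scaling, peaks were tested with glmQLFit and glmQLFTest over all peaks with Benjamini-Hochberg adjustment. SEs were derived from the F statistic, and a prior count of 2 went into log2 CPM. The Hmx1 contrast pooled the other deletions, and the Hoxa against Wnt6 contrast used their 5 libraries alone. Named were the called peaks of the locus, the tested peaks beside them, the peak nearest each gene start and the strongest peak of each gene, and the peaks at the 20 kb limit. The procedure was also run on simulated counts with the same spread at every peak and, for the Hmx1 contrast, no difference between the pooled deletions. Changes were placed only at peaks above a count minimum. Nothing is read from it for the low counts of the Fry peaks. Deviations of libraries with the same replicate number correlated between -0.04 and 0.08 over 6 pairs, and those of other pairs between -0.11 and 0.11. In groups of 2 libraries the deviations mirror each other, so these pairs are not separate checks. The numbers were not taken to pair libraries. Replicate 1 had the lowest total in each deletion, and whether libraries of the same number share a batch was not tested. Alternatives were other scalings, filters, cutoffs, windows and comparison groups, DESeq2, thinned counts, a replicate block and leaving out each library.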

Additional observations from a re-analysis of the deposited data

How the results depend on the processing

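The gained B3glct peak was called under all alternatives tried, with log2 fold changes from 4.70 to 5.11. The count of 3 gained peaks held except without Hmx1 replicate 2 (2) and in DESeq2 (1), where both Fry peaks had no adjusted p, so that they are not lost calls. Leaving out each library gave 2 to 3 called peaks and medians from 0.21 to 0.49 for the Hmx1 contrast, and 0 called and medians from 0.05 to 0.31 for Hoxa against Wnt6. With the Wnt6 deletion alone as comparison the Hmx1 median was 0.61. With a replicate block, 3 peaks were called and the median was 0.34 for the Hmx1 contrast, and 0 were called with a median of 0.29 for Hoxa against Wnt6, so the block changed no call of the locus. Some small values of the Hmx1 contrast, none of them called, changed sign. The Fry start site peak at 150259339 moved from -0.18 to 0.12 with thinned counts, the peak at 149715829 from -0.26 to 0.07 without Hmx1 replicate 2 and to 0.13 against the Wnt6 deletion alone, and the peak at 150517470 from -0.30 to 0.03 without Hmx1 replicate 2. The B3glct start peak at 149678151, at 0.01, lay between -0.08 and 0.11 over all alternatives. Several differences between the Hoxa and Wnt6 deletions, none of them called, changed sign too. The peak at 150021015 moved from -0.01 to 0.31 with the replicate block and lay between -0.48 and 0.31 with libraries left out. The peak at 150152185 moved from 0.04 to -0.031 with the block and to -0.0395 with thinned counts, and lay between -0.14 and 0.16 with libraries left out. Leaving out libraries gave -0.0029 to 0.31 at 149678151, -0.070 to 0.24 at 150097286 and -0.032 to 0.46 at 150118518.

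Counts over the whole genome moved far more than those of the locus. Called higher and lower in the Hmx1 contrast were 3 and 18 peaks, but 118 and 100 with a term for each genotype, 597 and 671 against the Hoxa deletion alone, 43 and 27 against the Wnt6 deletion alone, 2 and 48 with DESeq2, 4 and 27 with thinned counts, 6 and 73 without Wnt6 replicate 1, and 10 and 82 without Wnt6 replicate 2. For Hoxa against Wnt6 the 366 and 603 calls became 222 and 207 with DESeq2, 1904 and 2179 with no fold minimum, 258 and 337 at an adjusted p under 0.01, 258 and 359 without Wnt6 replicate 1, and 369 and 297 without Wnt6 replicate 2. Depth limits the 2 Fry peaks most, at 4 to 18 counts in each library of the Hoxa and Wnt6 deletions, and 2 libraries for each of the Hmx1 and Wnt6 deletions limit every comparison.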
